A study of Mus musculus with 18 samples.

Results

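Long noncoding RNA (lncRNA) genes other than Neat1 and Malat1 were examined as targets of miRNAs in cultured mouse keratinocytes. A chimeric read was counted as an lncRNA target where the midpoint of its target part lay in an mm10 RefSeq lncRNA gene and in no protein-coding, miRNA or small structured RNA gene, after reads of miR-709 were left out. This gave 16165 of 1153545 chimeric reads, or 1.45% of the 1117806 reads without miR-709. They fell on 13562 distinct combinations of position, strand and miRNA and carried 547 miRNA names. Of 12729 annotated lncRNA genes, 2344 gene names had a read, 111 had at least 20 reads and 1205 had 1 read.

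The study used CLEAR-CLIP, in which Argonaute 2 is precipitated from UV-irradiated cells and a miRNA is ligated to the RNA it was holding, so that 1 read names both partners. Set 1 had 3 libraries of miR-200 double knockout (DKO) keratinocytes and 6 control libraries of keratinocytes with K14-Cre alone, a recombinase driven by the promoter of a basal keratinocyte keratin. Set 2 had 3 DKO libraries, 3 libraries of miR-200 inducible keratinocytes given doxycycline at 3 ug/ml for 24 hours (induced) and 3 of the same inducible cells without the drug (uninduced). Each library came from 1 dish of confluent cells, and the libraries of a group were pooled in 1 file without library names. The labels give neither the sex or age of the donor animals, nor the number of clones, nor which miR-200 genes were deleted, and no group without the inducible construct received doxycycline. With 1 pooled file a group there is no replicate check and no test between groups. The intervals below are exact 95% intervals (Clopper-Pearson for a share, conditional exact for a ratio of shares) and cover counting error only.

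lncRNAs are transcripts that are not translated into known proteins. Some act in the nucleus on chromatin, some are precursors of miRNAs or small nucleolar RNAs, and a few have been proposed to bind miRNAs in place of messenger RNAs. A miRNA bound by Argonaute recognises RNA mainly through its seed, a short stretch near its 5′ end. The miR-200 family is known for keeping epithelial cells epithelial, and miR-205 and miR-203 are well-known miRNAs of the epidermis.

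The 10 miRNAs with the highest mean share of lncRNA reads over the 5 pools, which together made up 40.5% of these reads on average, are shown first because the results below turn on them. Sequences are those of RefSeq (GRCm38.p6), 5′ to 3′, with the seed (bases 2 to 8) in capitals.
miR-31-5p: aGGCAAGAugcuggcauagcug
miR-21a-5p: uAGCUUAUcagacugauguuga
miR-27a-3p: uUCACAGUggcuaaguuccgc
miR-706: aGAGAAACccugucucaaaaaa
miR-23a-3p: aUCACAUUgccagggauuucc
miR-2137: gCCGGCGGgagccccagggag
miR-205-5p: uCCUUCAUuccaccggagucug
miR-3470b: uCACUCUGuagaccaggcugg
miR-125b-5p: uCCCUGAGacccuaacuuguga
miR-3473b: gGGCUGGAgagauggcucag
The miR-200 family, deleted or induced in the study, falls into 2 seed groups. miR-200b-3p, miR-200c-3p and miR-429-3p share one, and miR-200a-3p and miR-141-3p share the other.
miR-200b-3p: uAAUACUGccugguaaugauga
miR-200c-3p: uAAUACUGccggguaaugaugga
miR-429-3p: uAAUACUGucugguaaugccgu
miR-200a-3p: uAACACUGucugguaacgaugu
miR-141-3p: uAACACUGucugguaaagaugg
Others are shown because they were ligated to single lncRNA sites described below. miR-27b-3p shares the seed of miR-27a-3p, and let-7e-5p has the let-7 seed.
miR-27b-3p: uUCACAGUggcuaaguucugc
let-7e-5p: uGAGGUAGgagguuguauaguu
miR-22-3p: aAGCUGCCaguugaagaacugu
miR-6340: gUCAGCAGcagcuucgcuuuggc

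The pools differed in depth. Without miR-709, the set 1 DKO pool held 42571 chimeric reads and the set 1 control pool 141696, and the set 2 DKO, induced and uninduced pools held 207986, 414872 and 310681. Between 2.76% and 8.86% of a pool's lncRNA reads had the same position, strand, miRNA and barcode as a read in another pool of their set, and results that rest on such reads are also given without them. A group of 8 miRNAs (miR-3470b, miR-706, miR-3470a, miR-3473b, miR-7667-5p, miR-1195, miR-6380 and miR-3473d) was overrepresented in set 1, where it made up 23.5% of lncRNA reads in the DKO pool and 33.0% in the control pool, against 3.98% to 4.35% in set 2. The 2 sets were therefore not compared with each other. Keratinocyte markers (8 genes, among them Krt5, Krt14 and Trp63) summed to 0.293% to 0.526% of reads in every pool, and immune markers (5 genes) had 0 reads. Fibroblast (6 genes), melanocyte (5) and endothelial (4) markers each summed to at most 0.00705% of a pool, with 5 or 6, 4, and 2 or 3 of their genes at 0.

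lncRNA genes took a small part of each pool. In set 1 they held 1.78% (1.65 to 1.91; 756 reads) of the DKO pool and 1.71% (1.65 to 1.78; 2428 reads) of the control pool, a ratio of 1.04 (0.954 to 1.13). In set 2 they held 1.61% (1.55 to 1.66; 3343 reads) of the DKO pool, 1.30% (1.26 to 1.33; 5386 reads) of the induced pool and 1.37% (1.33 to 1.41; 4252 reads) of the uninduced pool. The set 2 DKO share was thus 1.17 times the uninduced share (1.12 to 1.23), and 1.09 times (1.04 to 1.14) once Xist, described below, was left out. The induced share was 0.949 times the uninduced share (0.911 to 0.988), and 0.990 times (0.949 to 1.03) without the leading gene Gm36876. Protein-coding genes stood at 0.980, 1.02 and 1.02 in the same comparisons. The set 2 DKO and induced pools are set against the same uninduced pool.

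**Figure D1:**
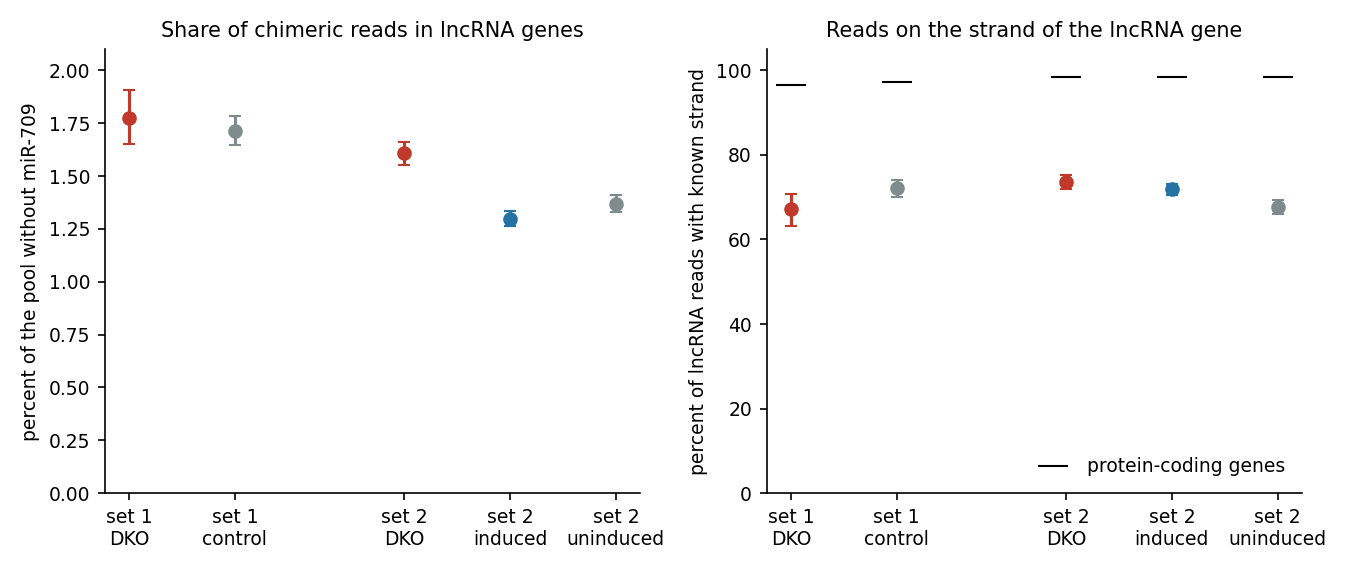
Left, lncRNA targets as a percent of each pool's chimeric reads without miR-709; right, percent of lncRNA reads on the strand of the annotated gene, with protein-coding genes as black dashes. Points are the 5 pools and bars exact 95% counting intervals; the shares lie between 1.30% and 1.78%, and the lncRNA strand percents between 67.1% and 73.6%, below the protein-coding values of 96.4% to 98.5%.

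Fewer lncRNA than protein-coding reads lay on the strand of their gene. Of the 13367 lncRNA reads whose gene has a strand in the RefSeq promoter table, 9482 (70.9%) lay on it and 3885 on the other, and 2798 reads fell in genes with no strand given there. The percent was 67.1% in the set 1 DKO pool, 72.1% in the set 1 control pool, 73.6% in the set 2 DKO pool, 71.8% in the induced pool and 67.7% in the uninduced pool. A few genes carried much of this. Gm36876 (1520 reads), AY036118 (258) and 2310047K21Rik (119) together held 48.8% of the opposite-strand reads, and without them 82.7% lay on the gene strand. Of 95 genes with at least 20 such reads, 68 had at least 90% of them on their own strand and 14 had at least 90% on the other. For these 14 the annotated lncRNA and the RNA that was read lay on different strands.

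The 10 leading gene names, with Gm36876, Pvt1 and 2610035D17Rik at their head, took 33.3% of all lncRNA reads. Genes were given their whole span, introns included, so a long gene gathers reads over all of it. Where reads lay in nested lncRNA genes of the same strand, both names are given.

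Gm36876 (gene ID 102640929, chromosome 11, 108980739 to 109034783, plus strand) led with 1521 reads. It had 62 reads (0.146%) in the set 1 DKO pool and 158 (0.112%) in the set 1 control pool, and 316 (0.152%), 459 (0.111%) and 526 (0.169%) in the set 2 DKO, induced and uninduced pools. All but 1 of these reads lay on the minus strand. They came from a pair of adjacent stretches, at 109011785 to 109012100 (626 chimeras with 98 miRNA names) and 109011644 to 109011783 (331 chimeras with 92), where a chimera is a distinct combination of position, strand and miRNA within a pool. Among protein-coding genes with a known strand, the nearest one upstream on the strand of the reads was Rgs9, 213248 bases away. The locus was almost the sole target of miR-2137: 369 of the 389 reads of that miRNA in the series lay there. miR-2137 made up 74.2% (61.5 to 84.5) of the locus reads in set 1 DKO cells and 78.5% (71.3 to 84.6) in set 1 control cells, and 33.2%, 12.6% and 6.84% in the set 2 DKO, induced and uninduced pools. Its part thus ran widely between pools, while the other 1152 reads carried miR-27a-3p, miR-23a-3p, miR-21a-5p and many more. Without miR-2137 the locus stood at 1.57 (0.807 to 2.92; 16 reads against 34) in set 1 DKO over control, at 0.643 (0.545 to 0.757) in set 2 DKO over uninduced and at 0.613 (0.536 to 0.701) in induced over uninduced, against 1.31, 0.897 and 0.653 with it.

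Pvt1 (gene ID 19296, chromosome 15, 62037986 to 62260215), the long transcript beside Myc, had 749 reads. There were 25 (0.0587%) in the set 1 DKO pool and 187 (0.132%) in the set 1 control pool, and 106 (0.0510%), 243 (0.0586%) and 188 (0.0605%) in the set 2 DKO, induced and uninduced pools. Within set 1 the DKO pool thus stood below the control pool, with a ratio of 0.445 (0.281 to 0.678), and in set 2 the DKO and induced ratios were 0.842 (0.657 to 1.07) and 0.968 (0.797 to 1.18). In the set 1 control pool, miR-3470b (28 reads), miR-6960-5p (19), miR-7667-5p (14) and miR-706 (13) led on Pvt1, and miR-31-5p led in the set 2 pools. Over 9 other ways of counting the set 1 ratio lay between 0.382 and 0.506, and each interval stayed below 1. At 0.506, without reads with marked names, the ratio was under 2-fold and the gene was not called. The reads were spread over 409 sites (groups of overlapping target parts on 1 strand), the deepest with 2.27% of the chimeras.

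2610035D17Rik (gene ID 72386, chromosome 11, 113043906 to 113201838, minus strand) had 612 reads of its own and 542 in the stretch it shares with LOC115487747 (113118690 to 113173083). Together with reads in another nested gene the locus had 79 reads (0.186%) in the set 1 DKO pool and 230 (0.162%) in the set 1 control pool. In set 2 it had 356 (0.171%) in the DKO pool, 274 (0.0660%) in the induced pool and 235 (0.0756%) in the uninduced pool. The set 2 DKO pool was 2.26 times the uninduced pool (1.91 to 2.68), while set 1 DKO over control stood at 1.14 (0.874 to 1.48) and induced over uninduced at 0.873 (0.731 to 1.04). All but 1 of the 1154 reads under both names lay on the gene strand, over 308 and 222 sites.

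Gm49890 (gene ID 106557447, chromosome 4, 88909854 to 88942042, minus strand) spans the gene of miR-31, and all 699 of its reads lay on its own strand. It had 11 reads (0.0258%) in the set 1 DKO pool and 60 (0.0423%) in the set 1 control pool, and 133 (0.0640%), 298 (0.0718%) and 197 (0.0634%) in the set 2 DKO, induced and uninduced pools. None of the 3 ratios (0.610, 1.01 and 1.13) had an interval that excluded 1. As miRNAs over all targets, miR-31-5p stood at 1.22 (1.17 to 1.28), 0.734 (0.720 to 0.747) and 1.03 in the same 3 comparisons, and miR-31-3p at 1.13, 0.970 and 0.887. Only 5 of the Gm49890 reads were of miR-31-5p or miR-31-3p within 200 bases of the hairpin. Per length of gene, Gm49890 had 21.7 reads a kilobase over all pools, below Gm36876 (28.1) and the 9.03-kilobase Tug1 (26.6). Pvt1 was far lower (3.37). For 2610035D17Rik, the reads of its own gave 3.88 and those shared with LOC115487747 a further 3.43, each over the whole 157.9 kilobases.

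**Figure D2:**
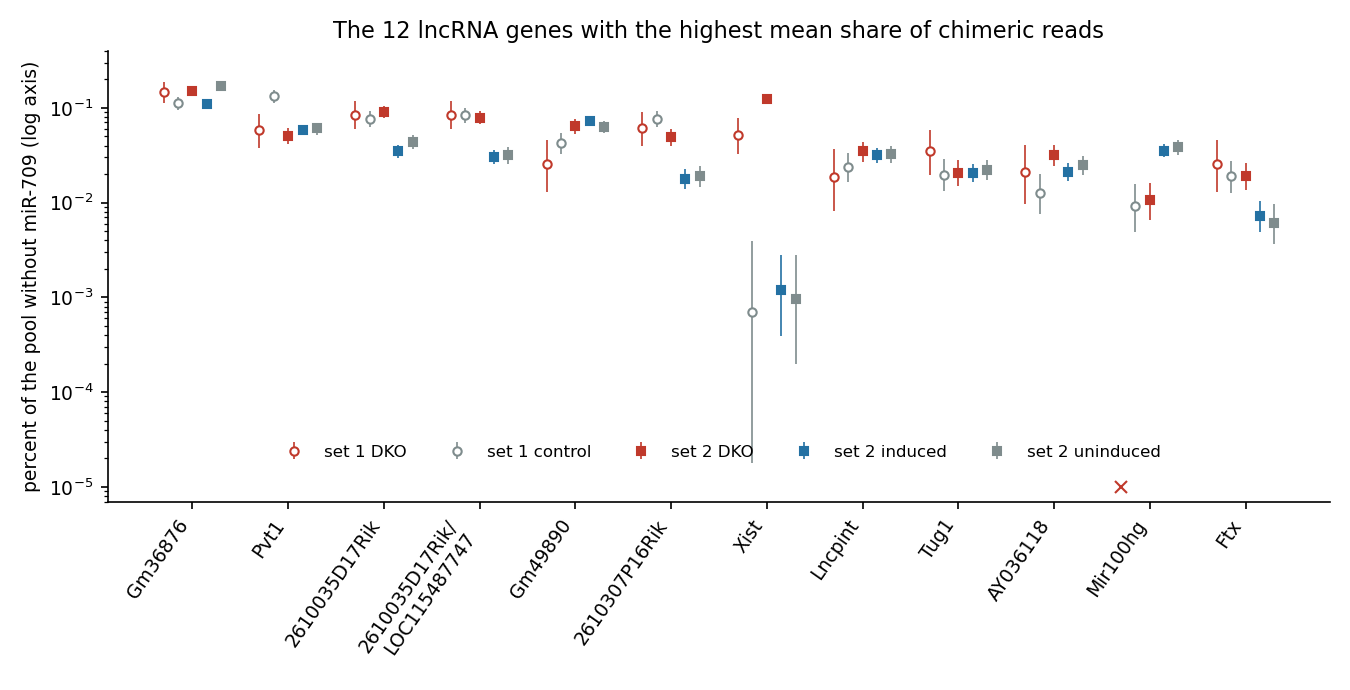
Share of chimeric reads (percent of the pool without miR-709, log axis) of the 12 lncRNA genes with the highest mean share, by pool; open circles are set 1, squares set 2, bars exact 95% counting intervals, and a cross at the bottom marks 0 reads. Xist stands apart, with 0.0517% and 0.123% in the DKO pools against at most 0.00120% in the others.

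Of the other leading genes, 2610307P16Rik (370 reads over 264 sites) is described with the ratios below. Lncpint, a transcript induced by p53, had 345 reads. It held 0.0188% of the set 1 DKO pool and 0.0240% of the set 1 control pool, and 0.0346%, 0.0316% and 0.0322% of the set 2 DKO, induced and uninduced pools, a narrow range within each set. Tug1, a widely studied transcript of nucleus and cytoplasm, had 15 reads (0.0352%) in the set 1 DKO pool and 28 (0.0198%) in the set 1 control pool, and 43, 85 and 69 (0.0207%, 0.0205% and 0.0222%) in the set 2 DKO, induced and uninduced pools. Its intervals overlapped throughout. AY036118, 2310047K21Rik, Gm15564, Gm14636, 5031425E22Rik, Gm38424, Gm29826, Morrbid (a regulator of myeloid cell survival) and Dleu2 (the host of miR-15a and miR-16-1) completed the 20 genes of highest mean share, with 89 to 258 reads each, beside Xist, Ftx and Mir100hg. In 10 of the 20 leading genes, fewer than 7% of chimeras lay in the deepest site.

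Ratios between pools were read for the genes with at least 20 reads over both pools, and a gene was called where the ratio was at least 2-fold and its interval excluded 1. In set 1, 1 of 16 lncRNA genes was higher in the DKO pool and 2 were lower, where 6.05% and 7.4% of all 2081 lncRNA and protein-coding genes were called. In set 2, 7 of 51 gene names were higher in the DKO pool (13.7%, background 8.3% of 4447 genes) and 7 lower (13.7%, background 8.7%). The higher names include 2610035D17Rik both alone and with LOC115487747, so this locus is counted under both names. Induced over uninduced, 4 of 63 were higher (6.35%; background 1.7% of 5303 genes) and 1 lower (1.59%; background 1.13%). The median ratio of the lncRNA genes was 0.905, 1.07 and 0.963 in the 3 comparisons, beside 0.902, 1.01 and 1.03 for protein-coding genes.

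**Figure D3:**
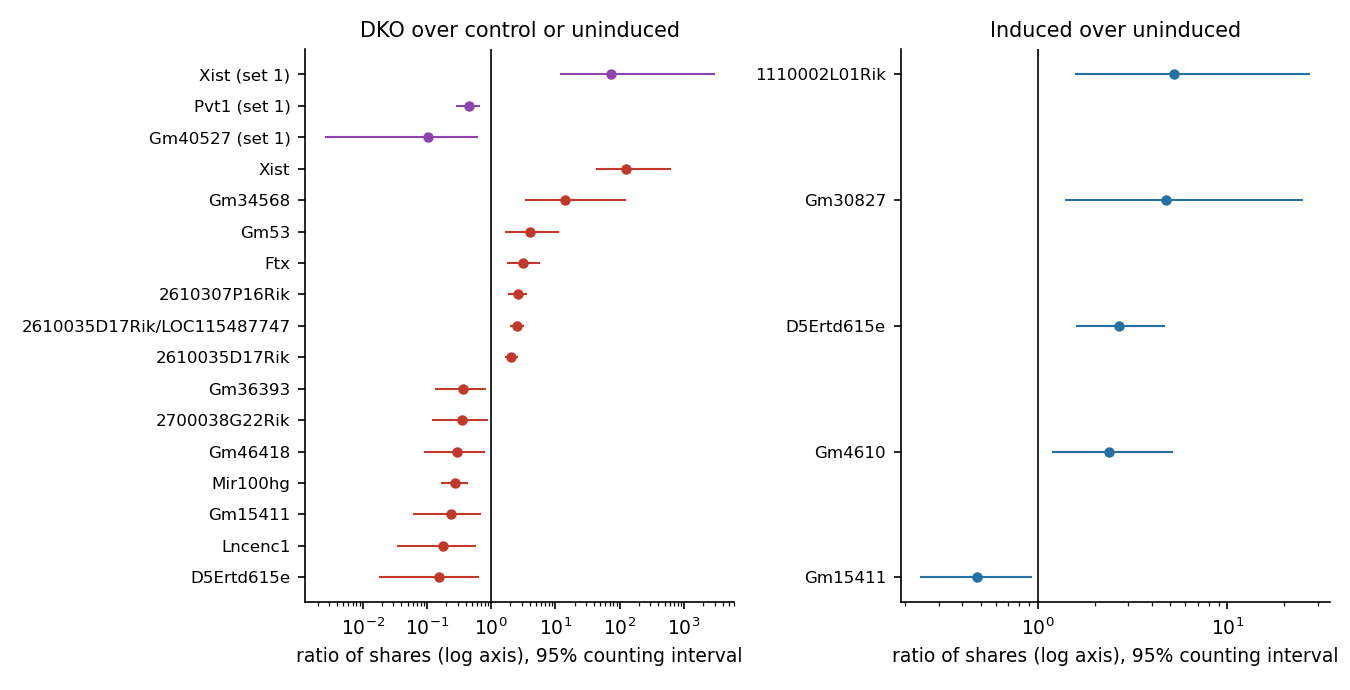
Ratio of shares (log axis) with its 95% counting interval for each lncRNA gene counted as higher or lower; left, DKO over control (set 1) and DKO over uninduced (set 2), right, induced over uninduced. Xist has ratios of 73.2 and 127 in the 2 DKO comparisons, and the other higher genes lie between 2.05 and 14.2.

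Xist (gene ID 213742, chromosome X, 103460373 to 103483233, minus strand), the RNA that coats the inactive X chromosome of female cells, differed most. It had 22 reads in the set 1 DKO pool and 1 in the set 1 control pool, and 256 in the set 2 DKO pool against 5 in the induced pool and 3 in the uninduced pool. All 287 lay on its own strand. The ratio was 73.2 (11.8 to 3022) in set 1 and 127 (43.1 to 622) in set 2. Without reads shared with another pool of the set, 21 and 248 reads remained in the DKO pools. The set 1 control, induced and uninduced pools then had 0. Against a floor of 3 reads in the reference pool, that is 25.5-fold higher in the set 1 DKO pool and 124-fold higher in the set 2 DKO pool. The exact intervals, which take the 0 reads as counted, began at 18.9 and 100.

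The Y-linked genes Ddx3y, Uty, Eif2s3y and Kdm5d ran the other way. Without shared reads they summed to 0 in set 1 DKO and 35 in set 1 control cells. In set 2 they summed to 1 in DKO, 277 in induced and 171 in uninduced cells. DKO genotype and this pattern of X- and Y-linked transcripts coincide in both sets and cannot be told apart, here or in any other DKO ratio. In set 2 the reference cells also carry the inducible construct, and no control has K14-Cre alone. Genotype and construct cannot be told apart in the set 2 DKO ratios. In pooled libraries, fewer cells with a transcript and less of it per cell cannot be told apart either.

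Other genes of the X-inactivation center were measured beside Xist. Of 4 genes named for the center, 3 were annotated as lncRNA genes: Xist, Ftx and Jpx. Tsix, the antisense repressor of Xist, was not, so its 0 reads in every pool under these rules say nothing of its presence. Ftx (gene ID 78878, 127 reads on the gene strand), which promotes Xist transcription, had 11 reads (0.0258%) in the set 1 DKO pool and 27 (0.0191%) in the set 1 control pool, and 40 (0.0192%), 30 (0.00723%) and 19 (0.00612%) in the set 2 DKO, induced and uninduced pools. It was 3.15 times higher in the set 2 DKO pool (1.78 to 5.75), and its set 1 ratio was 1.36 (0.607 to 2.82). Jpx, an activator of Xist, had 28 reads, of which 6 were in the set 2 DKO pool and 10 in the uninduced pool (0.896, 0.268 to 2.72).

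Single miRNA families took other parts of Xist reads than of protein-coding reads in the same pool. Members of let-7 made up 21.9% of Xist reads in set 2 DKO cells (16.97 to 27.5) and 7.20% of protein-coding reads, a ratio of 3.04 (2.29 to 3.95). miR-27a-3p and miR-27b-3p made up 26.2% and 11.0% (2.38, 1.85 to 3.03), and miR-31-5p 12.1% and 8.45% (1.43, 0.974 to 2.04). miR-23 (0.517, 0.258 to 0.925) and miR-205-5p (0.195, 0.0401 to 0.569) had smaller parts of Xist than of protein-coding reads. These miRNAs were counted after the sites had been seen.

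Most of the let-7 and miR-27 reads came from a few sites toward the 3′ end of the gene. The deepest site (103463935 to 103464057, 19176 bases from the 5′ end) had 50 chimeras, of which 44 (88%) carried miR-27a-3p or miR-27b-3p. The next (103465866 to 103465925) had 40, of which 28 were of the let-7 family, and all 17 chimeras of the other let-7 site (103464657 to 103464715) were of that family. A site 9281 bases from the 5′ end (103473871 to 103473952) had 14 of 18 chimeras with miR-31-5p. At these sites 121 of the 125 chimeras came from DKO pools, nearly all from that of set 2. In the order named, the set 2 DKO pool had 48, 39, 14 and 18 chimeras. The set 1 DKO pool had 2 at the other let-7 site and 0 at the rest. It had 7 at a further site, 16218 bases from the 5′ end. The let-7 and miR-27 sites are thus a result of set 2.

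**Figure D4:**
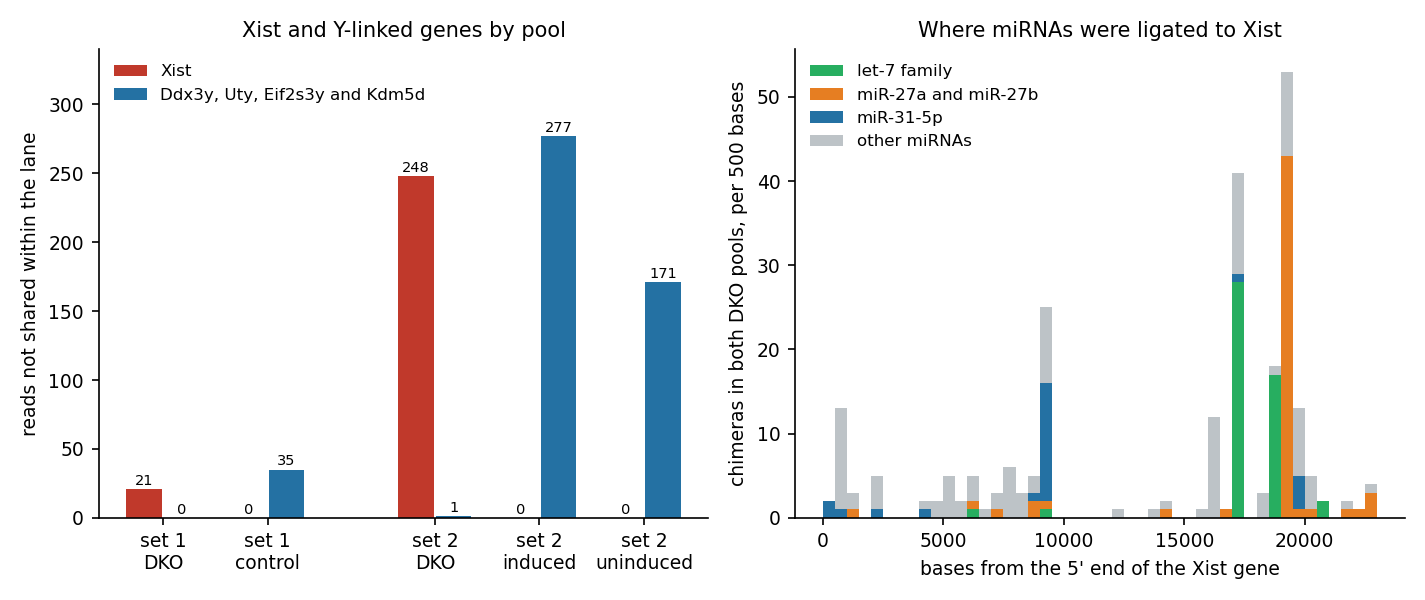
Left, reads on Xist (red) and on the Y-linked genes Ddx3y, Uty, Eif2s3y and Kdm5d (blue) in the 5 pools. Reads shared with another pool of their set, called the lane on the axis, are left out. Xist has 21 and 248 reads in the DKO pools and 0 in the others. Right, chimeras of both DKO pools along the Xist gene, in bins of 500 bases from its 5′ end, stacked by miRNA group; the let-7 and miR-27 peaks lie near 17308 to 19176 bases.

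In set 2, 2610307P16Rik (gene ID 72518, chromosome 13, 28460034 to 28885422) was higher beside 2610035D17Rik and Ftx. It had 102 reads (0.0490%) in the DKO pool, 74 (0.0178%) in the induced pool and 59 (0.0190%) in the uninduced pool, a DKO ratio of 2.58 (1.86 to 3.62). In set 1 it had 26 reads (0.0611%) in the DKO pool and 109 (0.0769%) in the control pool, a ratio of 0.794 (0.497 to 1.23). Within set 2 the DKO interval lay above those of the other 2 pools, as it did for 2610035D17Rik and Ftx, while in set 1 the intervals overlapped. Gm34568 (19 reads against 2; 14.2, 3.42 to 126) and Gm53 (19 against 7; 4.05, 1.63 to 11.4), both named after their values were seen, completed the higher group. Gm53 lies next to Gm51876, which spans Mir196a-1 and had 11 reads in the set 2 DKO pool and 2 in the uninduced pool, too few to be counted.

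Mir100hg (gene ID 73144, chromosome 9, 41376526 to 41615185, plus strand), the host transcript of miR-100, let-7a-2 and miR-125b-1, had most reads among the genes lower in the set 2 DKO pool. It had 22 reads (0.0106%) in the set 2 DKO pool, 147 (0.0354%) in the induced pool and 120 (0.0386%) in the uninduced pool. In set 1 it had 0 reads in the DKO pool (exact upper limit 0.008665%) and 13 (0.00918%) in the control pool, too few to be tested. The set 2 DKO ratio was 0.274 (0.165 to 0.434), and induced over uninduced stood at 0.917 (0.716 to 1.18). A single site (41587888 to 41588024) held 99 of its 302 reads, 93 of them with miR-31-5p. It had 2 reads in the set 2 DKO pool, 55 in the induced pool and 37 in the uninduced pool (DKO ratio 0.0807, 0.00943 to 0.313), and the rest of the gene had 20 in the DKO pool and 83 in the uninduced pool (0.360, 0.209 to 0.592). As miRNAs over all targets, miR-125b-5p (0.516, 0.500 to 0.533) and miR-100-5p (0.455, 0.287 to 0.701) also had smaller shares in the set 2 DKO pool, while let-7a-5p stood at 0.958 (0.922 to 0.996). In set 1 the same miRNAs stood at 1.08, 2.12 (0.696 to 5.98) and 1.32. Other loci make let-7a-5p too, and miR-125b-5p also has a locus on chromosome 16. Whether the shares of these miRNAs follow the host transcript was not tested.

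The other 6 genes lower in the set 2 DKO pool had 21 to 36 reads over both pools and are named after their values were seen. D5Ertd615e had 2 reads against 19 (0.157, 0.0178 to 0.652), Lncenc1 3 against 25 (0.179), Gm15411 4 against 25 (0.239), Gm46418 5 against 25 (0.299), 2700038G22Rik 6 against 25 (0.359) and Gm36393 7 against 29 (0.361). With each chimera counted once, the intervals of Gm46418, 2700038G22Rik and Gm36393 included 1. Of the 25 uninduced reads of Gm46418, 13 carried the miR-200 family, which is deleted in the DKO cells, and 0 of its 5 DKO reads did. Its low ratio thus rests in large part on the family's own reads, and a ratio without them was not computed. All 64 reads of Gm36393 over all pools lay on the strand opposite the gene. In set 1 the remaining lower gene was Gm40527, with 1 read in the DKO pool and 32 in the control pool (0.104, 0.00256 to 0.623), on 22 chimeras of 6 miRNAs over all pools; counted by chimera, its interval included 1 as well, and without the 8 overrepresented miRNAs it had too few reads to be tested.

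Induction of miR-200 went with fewer differences. D5Ertd615e had 68 reads in the induced pool and 19 in the uninduced pool (2.68, 1.59 to 4.72), and its 94 reads over all pools lay in 78 sites. Also higher, and named after their values were seen, were 1110002L01Rik (21 against 3; 5.24, 1.57 to 27.4), Gm30827 (19 against 3; 4.74, 1.40 to 25.0) and Gm4610 (35 against 11; 2.38, 1.18 to 5.20). Gm15411 was lower (16 against 25; 0.479, 0.239 to 0.934). All 26 reads of Gm30827 over all pools lay on the strand opposite the gene. The intervals of 1110002L01Rik and Gm15411 included 1 when each chimera was counted once, and that of 1110002L01Rik also without the 8 miRNAs overrepresented in set 1 (6.01, 0.806 to 267).

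Genes of known classes were followed as lists, chosen with earlier results of these data known. Of 19 small nucleolar RNA hosts 16 had reads, 263 in all, and neither of the 2 tested in set 2 or after induction was called (median ratios 0.882 and 1.17). Snhg1 led with 0 reads in the set 1 DKO pool and 5 in the set 1 control pool, and 10, 28 and 14 in the set 2 DKO, induced and uninduced pools, before Snhg4 (44 reads) and Gas5 (27). Among imprinted transcripts 5 of 8 had reads. Snhg14, which runs antisense to Ube3a in neurons, had 44, Airn, which silences Igf2r, 32 and H19 25. H19 had 0 reads in the set 2 DKO pool, 11 in the induced pool and 9 in the uninduced pool, too few in the DKO comparison to be tested. The 2 imprinted genes tested after induction had a median ratio of 1.43, and neither was called.

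The list of miRNA hosts (Dleu2 and genes whose names mark them as hosts) held 3.33% of lncRNA reads. It leaves out other genes that span a miRNA gene, such as Gm49890 (699 reads), 2610307P16Rik (370) and Ftx (127). Besides Mir100hg, Dleu2 had 0 reads in the set 1 DKO pool and 14 in the set 1 control pool, and 33, 27 and 26 in the set 2 DKO, induced and uninduced pools (DKO ratio 1.90, 1.10 to 3.30, under 2-fold). Its miRNAs miR-16-5p and miR-15a-5p stood at 1.32 and 1.20 in that comparison, and at 1.66 and 1.23 in set 1 DKO over control. Mirc35hg, the host of the miR-183 cluster, had 48 reads, and Mir205hg, on the epidermal list, 41. The other epidermal lncRNAs were rare, with 7 reads for Dancr, which keeps progenitors undifferentiated, and 1 for Tincr, which acts in differentiation. In 76 lncRNA reads the target part lay within 200 bases of the hairpin of its own miRNA, led by miR-421-3p on Ftx (17 reads), miR-16-1-3p on Dleu2 (7) and miR-92a-3p on Mir17hg (7).

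The list of studied scaffolds and sponges held 10.2% of lncRNA reads. Of its 20 annotated genes 13 had reads, and of the 7 tested in set 2 Lncenc1, known from embryonic stem cells, was the 1 called in DKO over uninduced (above), and none was called in induced over uninduced. In set 1 Pvt1 was called among 3 tested. The median ratios of the list were 0.783, 1.04 and 0.981 in set 1 DKO, set 2 DKO and induced cells. Firre, which takes part in nuclear organisation, had 18 reads in the set 2 DKO pool, 34 in the induced pool and 20 in the uninduced pool (DKO ratio 1.34, 0.671 to 2.68). Of 212 opposite-strand transcripts 44 had reads, and none of the 2 tested was called. Rab10os had 17 reads in the set 2 DKO pool, 39 in the induced pool and 23 in the uninduced pool, Oip5os1 16, 17 and 12, and Ino80dos 4, 10 and 8.

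The miRNAs on lncRNA genes were in the main those on protein-coding genes. miR-31-5p led with 1636 reads on 501 gene names. It made up 4.37% of lncRNA and 5.83% of protein-coding reads in the set 1 DKO pool (ratio 0.749) and 4.61% and 4.71% in the set 1 control pool (0.979). In set 2 the ratios were 0.991, 1.09 and 0.975 in the DKO, induced and uninduced pools. Of the 150 miRNAs tested in all 5 pools, 8 had a ratio above 1 and 28 a ratio below 1 in each pool. A miRNA with 0 lncRNA reads in a pool counted as below 1, as let-7b-5p did in the set 1 DKO pool. The minimum of 20 reads was over lncRNA and protein-coding genes together, and that pool had 756 lncRNA reads. The 8 and the 28 can therefore not be set against each other. Calls at 2-fold were few. In the set 1 DKO pool, 6.58% of 152 miRNAs were higher on lncRNA genes and 4.61% lower, and in the set 1 control pool 5.61% and 3.96% of 303. In set 2, 2.56% and 2.56% were called in the DKO pool, 2.91% and 2.18% in the induced pool and 3.21% and 1.61% in the uninduced pool.

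In all, 3 miRNAs were called higher and 1 lower in at least 3 pools. miR-706 had a median ratio of 2.18 (1.55 to 2.91 over the pools) and was spread over 266 gene names, with at most 21 of its 464 reads on one. miR-3473b had a median of 2.40, and 51 of its 295 reads lay in A330008L17Rik, on the strand opposite the gene. miR-2137 was higher through the Gm36876 locus. miR-101b-3p was lower, with 13 reads on lncRNA genes and a median ratio of 0.284. Among miRNAs on the same side of 1 in every pool, miR-342-3p (median 1.91), miR-466o-5p (1.70), miR-467d-3p (0.464), miR-425-5p (0.444), miR-467c-5p (0.384) and miR-297c-5p (0.209) had the next largest ratios, on 7 to 30 lncRNA reads.

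The miR-200 family was nearly absent from lncRNA genes in DKO cells. In set 1 it had 2 reads in the DKO pool (0.265% of lncRNA reads) and 70 in the control pool (2.88%), a ratio of 0.0918 (0.0109 to 0.344) beside 0.0435 on protein-coding genes. In set 2 it had 7 reads in the DKO pool (0.209%), 521 in the induced pool (9.67%) and 276 in the uninduced pool (6.49%). The DKO ratio was 0.0323 (0.0129 to 0.0674), beside 0.0530 on protein-coding genes, and induced over uninduced was 1.49 (1.29 to 1.73), beside 1.35. Without reads shared with another pool of the set, 1 and 3 family reads remained in the DKO pools.

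The members moved unequally on induction. miR-429-3p had 63 reads in the induced pool and 14 in the uninduced pool (3.55, 1.97 to 6.87), miR-200b-3p 148 and 43 (2.72, 1.92 to 3.91) and miR-200a-3p 27 and 11 (1.94, 0.930 to 4.33). miR-200c-3p had 151 and 107 (1.11, 0.864 to 1.44) and miR-141-3p 132 and 101 (1.03, 0.790 to 1.35). The ratios of each member on protein-coding genes (2.25, 2.49, 2.12, 1.03 and 0.965) lay inside these intervals.

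The 876 family reads lay on 308 lncRNA gene names, of which 34 had at least 5. Gm36876 (59 reads), Gm49890 (58), Pvt1 (33), 2610035D17Rik (31) and Mir100hg (27) led. In some genes the family was a large part of all reads. It made up 44.2% of the 52 reads of Gm46418, nearly all with the miR-200a and miR-141 seed (19 of 23). It made up 31.8% of Snhg14, 28.1% of 3110039M20Rik and 20.97% of 2310047K21Rik. There the seed that miR-200c has in common with miR-200b and miR-429 held 14 of 14, 16 of 16 and 25 of 26 family reads. In 2310047K21Rik the induced pool had 21 of these reads and the uninduced pool 2.

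Chimeras on lncRNA genes formed 8511 sites, of which 6730 held a single chimera and 287, in 132 gene names, held at least 5. The latter sites held 28.9% of the 14445 chimeras, 28 had at least 20, and 33 had chimeras from each of the 5 pools. Among the 20 leading genes the deepest site held between 2.27% (Pvt1) and 99.3% (Gm15564) of the chimeras of its gene, with Tug1 (32.6%) and 2310047K21Rik (36.7%) between.

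**Figure D5:**
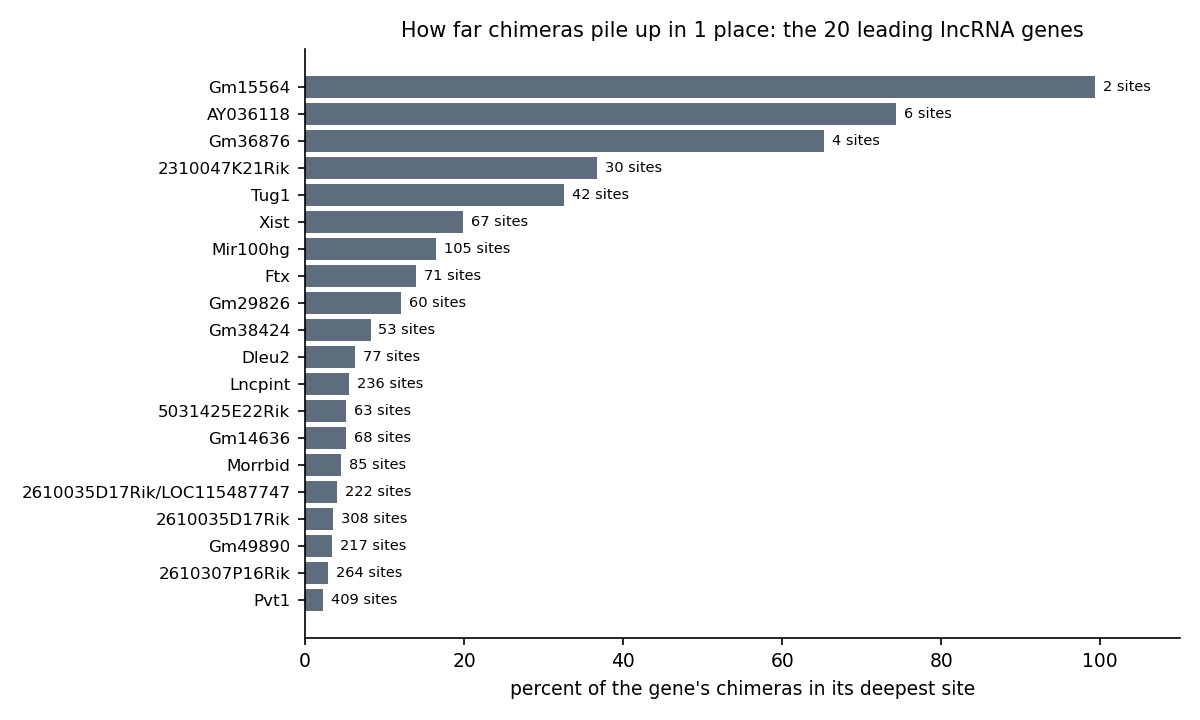
Percent of a gene's chimeras that lie in its deepest site, for the 20 lncRNA genes with the highest mean share, with the number of sites in each gene beside its bar. Gm15564, AY036118 and Gm36876 have 65.3% to 99.3% in 1 site, and Pvt1 has 2.27% over 409 sites.

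Sites that held most chimeras of their gene with many miRNAs lay in Gm15564, AY036118 and Gm30821, beside Gm36876. Gm15564 (chromosome 16, 35981674 to 35981824, gene strand) had 146 of its 147 chimeras in 1 site with 53 miRNA names, and the leading miR-31-5p had 16. In AY036118 the deepest site (chromosome 17, 39848096 to 39848257) had 180 chimeras with 60 miRNA names, all on the strand opposite the gene. It overlaps the ribosomal RNA pseudogene Rn18s-rs5 (39846354 to 39848202). Gm30821 had 65 chimeras (98.5%) in 1 site with 27 miRNA names, led by miR-125b-5p with 19.

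At other sites 1 miRNA had most chimeras. miR-31-5p had 32 of 38 chimeras at the Mir100hg site, 33 of 42 in 2700038G22Rik (chromosome 5, 23854584 to 23854705), 26 of 30 in 5530601H04Rik (chromosome X, 105053049 to 105053171) and 21 of 23 in Gm33318 (chromosome 6, 37442731 to 37442823). A pair of miRNAs led at 2 further sites. At the deepest Tug1 site (chromosome 11, 3641531 to 3641739; 69 chimeras) miR-21a-5p had 29 and miR-31-5p 16. In 1500011B03Rik (chromosome 5, 114808201 to 114808341; 40 chimeras) miR-24-3p had 14 and miR-23a-3p 13. Each of these lay on the gene strand.

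The let-7 family held all 24 chimeras of a site in Snhg4, through 8 members. In Gm36393 miR-22-3p had 22 of 25 chimeras at chromosome 2, 69403419 to 69403508, on the strand opposite the gene and 333 bases past the annotated end of the protein-coding Dhrs9, which runs on the strand of the reads. In 2310047K21Rik the deepest site (chromosome 2, 104827289 to 104827461; 43 chimeras) likewise lay on the opposite strand, 3280 bases past the end of Prrg4.

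In a few further genes 1 miRNA made up most or all reads of a site or of the gene. In A330008L17Rik all 51 reads of the deepest site (chromosome 8, 99645159 to 99645193) were of miR-3473b, one of the 8 miRNAs overrepresented in set 1. They lay on the strand opposite the gene. In 2610035D17Rik and LOC115487747, all 37 reads of a site at 113161817 to 113161887 were of miR-547-3p, and 25 of 27 at 113167928 to 113168011 of miR-7094-1-5p. miR-6340 made up 33 of the 50 reads of Gm51876, all 50 of which lay on the strand opposite the gene. At their share of protein-coding reads, miR-7094-1-5p and miR-6340 would have given fewer than 1 read in these genes.

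Single pairs of gene and miRNA were set against the rest of the series. Of 161 pairs with at least 10 reads in lncRNA genes of at least 50 reads, 34 (21.1%) were at least 5-fold above the miRNA's share of protein-coding reads, where 21.9% of the 14154 pairs of both classes were. Of 102 lncRNA sites with at least 10 chimeras, 57 (55.9%) had at least 50% of them from 1 seed, beside 4491 of 7095 (63.3%) for protein-coding sites.

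For a few target parts the sequence could be read, where they lay wholly in the window from 250 bases before to 50 after the start of an lncRNA gene. These were 41 distinct target parts of 13562, in 34 genes. Of these, 7 (17.1%, 7.15 to 32.1) held the complement of bases 2 to 7 of their own miRNA. They lay at 6 separate places, since 2 of them overlap with the same miRNA, and the interval takes target parts as independent. On the opposite strand of the same stretches 0 did (upper limit 8.60%). With bases 2 to 8 the count was 2. Examples are shown because they give the bases that a miRNA may have paired with, from RefSeq (GRCm38.p6) on the strand of the read, with the complement of bases 2 to 7 in capitals. The first was ligated to miR-31-5p in Gm35551 (chr17:84025972-84025997, plus strand), the second to miR-31-5p in Gm35853 (chr15:101395559-101395588, plus strand), the third to let-7g-5p in Gm15927 (chr7:3644323-3644352, minus strand) and the fourth to miR-27b-3p in Gm32287 (chr2:167777724-167777753, minus strand).
Gm35551 target: gcccttttcagcccagagtCTTGCCt
Gm35853 target: ttttatgccagcaaCTTGCCagtggacctg
Gm15927 target: ctttgcccTACCTCggttacatctgtaatg
Gm32287 target: cagtgtCTGTGAggagagcaggcttggcgg
Each of these target parts had 1 read. A match is a description of the letters, and the sites with many reads described above lay outside the sequences used here.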

How the data were processed

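The 18 libraries are pooled by group in 5 deposited files, whose values are positions, not counts. An entry stands for 1 chimeric read and gives its miRNA, its barcode of 4 bases, and where and on which strand the target lies in mm10. Per the submitters' processing notes the authors used cutadapt, Novoalign and bedtools with mm10; versions are not given in the sources used here. Amplified copies had been collapsed in the deposited files. Each read was given to RefSeq genes (GRCm38.p6) by the midpoint of its target part. Shares are over all reads of the pool without miR-709, which was left out as overrepresented. Ratios were counted as higher or lower at 2-fold with an exact 95% interval excluding 1 and at least 20 reads over both pools. The rule was tested on simulated data that held counting error only, so that test could not show calls made by differences between libraries. Python 3.11.15, pandas 2.3.3 and scipy 1.17.1 were used. Members and lists were chosen with earlier results of these data known. Named are the 20 genes of highest mean share, called genes with at least 50 reads, 3 genes of each list with at least 20 reads, the 10 leading miRNAs, the miR-200 family, 5 miRNAs a direction by median ratio, and the 12 deepest sites; others named were chosen after their values were seen. Coordinates count from 1. Exons were not used here.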

Additional observations from a re-analysis of the deposited data

How the results depend on the processing

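Results were recomputed with each chimera counted once, without reads shared with another pool of the set and without marked read names. They were also recomputed without the 8 miRNAs overrepresented in set 1, on the gene strand only and without Gm36876. Further settings took the whole target part in the gene or kept miR-709. Leaving out Xist or reads beside their own hairpin was chosen after seeing the data. Of 137 such values 115 stayed within their interval or within 1.5 times the count. The ratios of single called genes stayed on the same side of 1 in 210 of 210 cases. Several settings could hardly move them. Leaving out Gm36876 or Xist does not touch the reads of other genes, and no lncRNA read of set 2 had a marked name. The genes had been picked as called, and cases with too few reads were left out, so this count is a weak check. The share ratio of set 2 DKO over uninduced was 1.31 on the gene strand, 1.11 with miR-709 and 1.09 without Xist, and that of induced over uninduced was 0.997 on the gene strand and 0.990 without Gm36876. Genes called in set 1 numbered 3, but 1 by chimeras, on the gene strand or with at least 50 reads, and 5 with miR-709 or at least 10 reads. In set 2 DKO over uninduced they numbered 14, with the 2610035D17Rik locus under both its names, but 6 with at least 50 reads and 25 with at least 10. After induction they numbered 5, but 3 by chimeras or on the gene strand, 1 with at least 50 reads and 8 with any ratio whose interval excludes 1. Keeping miR-709 left 13 of the 20 leading genes, gave 197 in place of 84 calls of miRNAs on lncRNA genes and put 53.5% of reads on the gene strand, against 73.5% by chimeras, 80.0% without Gm36876 and 70.9% in the main count. With bases 2 to 8, 4.88% of target parts held a seed complement. Where no cause is shown by the setting itself, the cause was not tested. No paired analysis was possible because the files pool the libraries of a group; leaving out replicates, exon shares and seed matches over whole genes were not run for want of library names, exons and genome sequence. Depth limits the set 1 comparison, where 16 lncRNA genes could be tested.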
